A study of Mus musculus with 15 samples.

Results

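The Bcl2 family and its partner caspase inhibitors were examined here through 9 genes in the mouse CD4 T helper clone A.E7. The members were taken as every probe set on 3 array designs, chip types A, B and C, whose platform annotation gives exactly 1 gene symbol equal to Bcl2, Bcl2l1, Bcl2l11, Mcl1, Bax, Bak1, Bid, Xiap or Cflar. This gave 26 probe sets for 8 genes, out of 29131 probe sets with 1 symbol for 15964 genes. Bax, a pore-forming effector of the family, had no probe set under this rule and is not analysed here.

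Cells were mock stimulated, or given anti-TCR, which engages the T cell receptor (TCR) and is titled anergic. The other stimulated cells received anti-TCR together with cyclosporin A (CSA), which blocks the phosphatase calcineurin, with a protein kinase C inhibitor that the labels do not name (PKCi), or with rapamycin, PD98059 and SB203580 (Combo), which block mTOR, MEK and p38. All groups share the same clone, so the cells stand for 1 line, and each treatment is a pool of messenger RNA from 3 times, 2, 4 and 6 h. Each treatment was read once on every chip type, on 15 arrays in all, so the values below have no replicate check and no SD over cultures, and no test was possible. In such bulk RNA, fewer cells with a transcript and less transcript per cell cannot be told apart.

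Apoptosis through mitochondria is set by a balance inside the Bcl2 family. Survival members such as Bcl2, Bcl2l1 (Bcl-xL) and Mcl1 hold the effectors Bax and Bak1 inactive, and BH3-only members such as Bcl2l11 (Bim) and Bid relieve that hold. Downstream, Xiap binds and blocks active caspases, and Cflar (c-FLIP) blocks caspase-8 at death receptors; in T cells, receptor signals and cytokines are known to alter several of these genes.

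The promoters of Mcl1, Xiap and Cflar are shown because Mcl1 and Xiap had the only called probe sets among the members, both in the same comparison, and Cflar had values on the other side of anti-TCR in it. Each is the RefSeq window of 300 bases on GRCm38.p6, from 250 bases before to 50 bases after a gene start, on the plus strand and read 5′ to 3′. Capitals mark matches, on both strands, to GGAAA (the core of NFAT sites), TGACG (the core of a cyclic AMP response element), GGGCGG (a GC box), CCGGAA (an Ets core) or TGANTCA (an AP-1 site); GGAAA and CCGGAA can overlap.
Mcl1 chr3:95658471-95658770: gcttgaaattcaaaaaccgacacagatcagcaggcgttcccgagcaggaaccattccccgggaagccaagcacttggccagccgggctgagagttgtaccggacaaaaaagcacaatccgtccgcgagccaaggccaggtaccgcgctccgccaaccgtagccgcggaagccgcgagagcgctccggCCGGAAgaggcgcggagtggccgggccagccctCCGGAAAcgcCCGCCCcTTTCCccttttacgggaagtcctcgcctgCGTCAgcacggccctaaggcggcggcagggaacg
Xiap chrX:42068148-42068447: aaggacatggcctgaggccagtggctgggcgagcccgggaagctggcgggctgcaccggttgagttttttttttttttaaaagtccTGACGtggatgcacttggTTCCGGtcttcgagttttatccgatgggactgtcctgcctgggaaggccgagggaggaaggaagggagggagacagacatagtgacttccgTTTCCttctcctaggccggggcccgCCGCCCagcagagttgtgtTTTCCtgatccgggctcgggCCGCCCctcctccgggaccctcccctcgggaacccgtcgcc
Cflar chr1:58711241-58711540: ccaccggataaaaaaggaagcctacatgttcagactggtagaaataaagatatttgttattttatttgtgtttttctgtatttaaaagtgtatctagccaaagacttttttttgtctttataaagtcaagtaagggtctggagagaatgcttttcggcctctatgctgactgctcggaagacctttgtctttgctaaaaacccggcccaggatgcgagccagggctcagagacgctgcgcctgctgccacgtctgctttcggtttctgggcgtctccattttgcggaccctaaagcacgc

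The Mcl1 window held 2 matches to GGAAA, 1 to TGACG, 1 to GGGCGG and 2 to CCGGAA. The Xiap window, the first of 3 listed for the gene, held 2, 1, 2 and 1 in the same order. The second Xiap window held 2, 0, 2 and 0 and the third 1, 0, 0 and 0, so TGACG and CCGGAA were matched in the window shown and not in the other Xiap windows. The Cflar window held 0 of each. Over 32851 promoter windows of the same length, 61.3% held GGAAA, 20.8% TGACG, 35.7% GGGCGG, 14.9% CCGGAA and 7.81% TGANTCA, and none of the 3 windows shown held TGANTCA. A match is a string of letters and not a shown binding site.

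Values are array intensities. The floor of a chip type is the median of all its values (51.1 on A, 69.5 on B and 55 on C), and any value under it was set to it ahead of the log2 step. A probe set counted as measured in a comparison when the higher of its values was at least 4 times the floor (204.4 on A, 278 on B and 220 on C). It rose or fell when it was measured and its values lay at least 2-fold apart. Of the 26 member probe sets, 9 from 5 genes (Bcl2, Bcl2l1, Mcl1, Xiap and Cflar) reached 4 times the floor in at least 1 treatment, 8 lay above the floor in some treatment without reaching it, and 9 never rose above the floor. The technical SD of a log2 ratio, estimated from genes read on more than 1 chip type, came to 0.755 in the ratio of anti-TCR to mock and, in ratios to anti-TCR, to 0.48 with CSA, 0.714 with PKCi and 0.553 with Combo; it holds the spread of arrays and probes, and no spread between cultures.

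As a check of the label, 9 of the 10 CD4 T cell markers with a probe set reached 4 times the floor, Cd4 and Cd3e among them; Cd5 stayed at or below the floor. The summed intensity of these markers was 10439 with CSA and 10653 with PKCi, against 14447 to 14657 in the other 3 treatments. Of other cell types, 0 of 6 B cell, 0 of 2 CD8 T cell and 0 of 5 erythroid and neutrophil markers did so, with Cd8a and Cd8b1 at or below the floor. Of 8 macrophage and dendritic cell markers 1 did, Cd14, and the summed intensity of that list ran from 434 (Combo) to 598 (CSA); Adgre1, Csf1r and Lyz2 stayed at or below the floor. The part of these markers in the results was not tested. Each array correlated with the other 4 of its chip type at a median Pearson r of 0.906 to 0.949, lowest for anti-TCR on each chip type.

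Among the survival members, Mcl1, a short-lived protein that T cells need, was read by 2 probe sets. On chip type C, 167055_f_at read 5295 with mock, 2686 with anti-TCR, 3532 with CSA, 7203 with PKCi and 4869 with Combo. The highest value was that of PKCi and the lowest that of anti-TCR, and mock and Combo lay close together. Mcl1 rose 2.68-fold on this probe set with PKCi against anti-TCR (log2 ratio 1.42); its name carries the suffix f, given to probe sets whose probes also match transcripts of a sequence family. Anti-TCR against mock gave -0.98 on the log2 scale (1.97-fold, under the limit), and quantile normalization moved it past the limit, to -1.07.

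The other Mcl1 probe set, 93093_at on chip type A, read 362 with mock, 349 with anti-TCR, 314 with CSA, 635 with PKCi and 484 with Combo. PKCi again had the highest value, whereas mock, anti-TCR and CSA lay together. The log2 ratio to anti-TCR was 0.86 for PKCi and 0.47 for Combo, both under the limit. The probe sets differed most in the ratio of anti-TCR to mock, at -0.98 and -0.05, and a log2 ratio of PKCi to mock of 0.44 on 167055_f_at compared with 0.81 on 93093_at.

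Bcl2, the founding survival member, was read by 6 probe sets, of which 1 reached 4 times the floor. That one, 98870_at on chip type A, read 213 with mock, 227 with anti-TCR, 207 with CSA, 188 with PKCi and 164 with Combo. These values lay within 1.39-fold of each other, and no step in their order reached the smallest technical SD. Against anti-TCR, the log2 ratios were -0.14 for CSA, -0.28 for PKCi and -0.47 for Combo, each under 1 technical SD. With PKCi and Combo its value lay under the minimum of 204.4, so in those ratios it was measured through anti-TCR alone.

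Another Bcl2 probe set, 111679_at on chip type B, read 248 with mock, 201 with anti-TCR, 142 with CSA, 148 with PKCi and 199 with Combo, all under the minimum of 278. The r-suffixed 137976_r_at on chip type C read 118, 123, 101, 69.5 and 111 in the order mock, anti-TCR, CSA, PKCi and Combo, and the g-suffixed 98869_g_at on chip type A read 94.1, 133, 53.3, 68.3 and 76.1. On all 4 of these Bcl2 probe sets CSA, PKCi and Combo read below anti-TCR, and 3 of the 4 never reached the minimum. The remaining 98868_at and 137975_i_at lay at or below the floor in all 5 treatments, at most at 32.8 and 11.3.

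Bcl2l1, whose long form is the survival protein Bcl-xL, was read on chip type A only. Probe set 99027_at read 163 with mock, 282 with anti-TCR, 185 with CSA, 156 with PKCi and 194 with Combo. Anti-TCR stood above the other 4 treatments, and it alone reached the minimum of 204.4, so the probe set entered each comparison through the value that was high. The log2 ratio was 0.80 for anti-TCR against mock (1.74-fold), -0.61 for CSA, -0.85 for PKCi and -0.54 for Combo against anti-TCR, all under the limit. The second probe set, 99026_at, read between 3.5 and 10.4, below the floor, and gives no order of treatments.

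**Figure D1:**
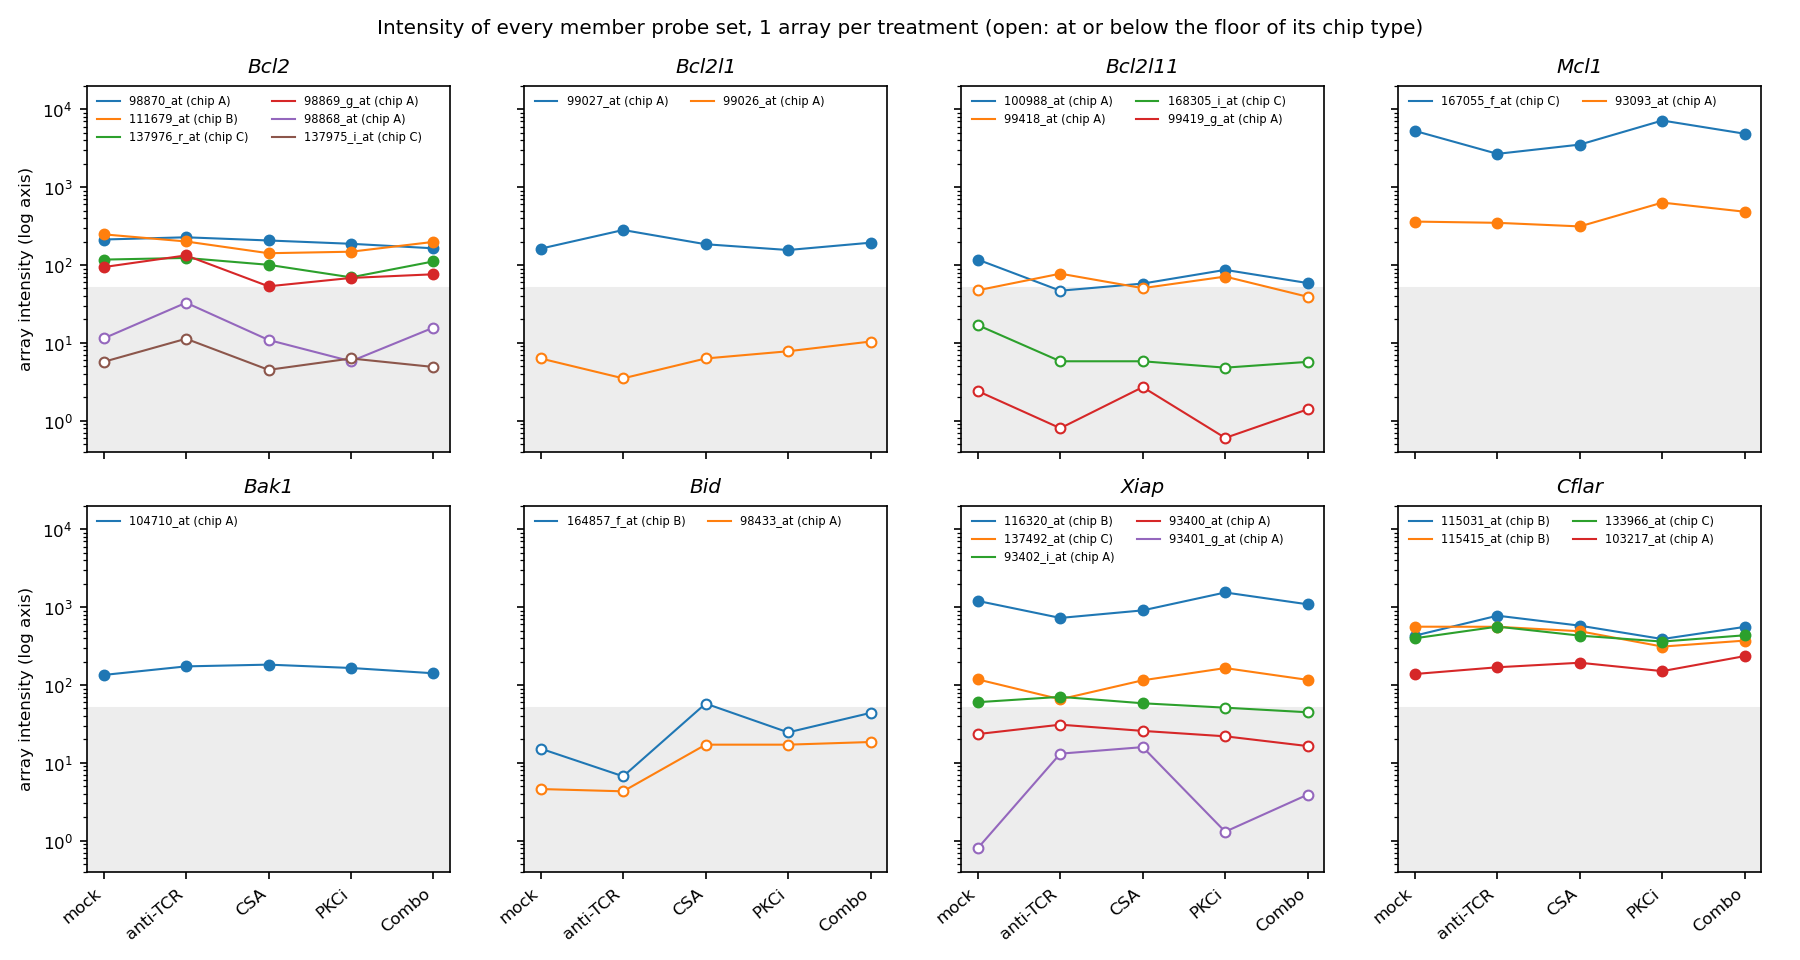
Array intensity (log axis) of all 26 member probe sets of 8 genes over the 5 treatments, with 1 array per point and 1 line per probe set. Open points lie at or below the floor of their chip type and the grey band ends at the lowest floor, 51.1; both Mcl1 lines and the top Xiap line peak with PKCi, at 7203, 635 and 1545, and 3 of the 4 Cflar lines are lowest there.

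Of the effectors, Bak1, which forms pores in the outer mitochondrial membrane, was read by 104710_at on chip type A. It read 135 with mock, 173 with anti-TCR, 183 with CSA, 165 with PKCi and 141 with Combo. All 5 values lay above the floor and below the minimum, within 1.36-fold of each other, so Bak1 was not measured in any comparison.

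The BH3-only members were dim. Bcl2l11, which encodes Bim and is known as a killer of T cells deprived of cytokine, had 4 probe sets, of which 0 reached the minimum. Its brightest, 100988_at on chip type A, read 118 with mock, 46.8 with anti-TCR, 57.8 with CSA, 86.7 with PKCi and 58.7 with Combo. Mock was highest and anti-TCR lay below the floor; with no minimum on intensity the log2 ratio of anti-TCR to mock would be -1.20. The next, 99418_at, read 47.4 for mock, 77.5 for anti-TCR, 50.5 for CSA, 71.1 for PKCi and 39.1 for Combo. The i-suffixed 168305_i_at and the g-suffixed 99419_g_at stayed below the floor, at most at 16.9 and 2.7, and no change of Bcl2l11 was called. Bid, which caspase-8 cleaves to link death receptors to mitochondria, lay below the floor in all 5 treatments on both of its probe sets, at most at 57.7 on 164857_f_at (floor 69.5) and 18.5 on 98433_at. Values below the floor have no order, and whether Bid was expressed is not shown by them.

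Of the caspase inhibitors, Xiap, which binds and blocks active caspases, was bright on 116320_at of chip type B. This probe set read 1203 with mock, 727 with anti-TCR, 909 with CSA, 1545 with PKCi and 1089 with Combo. The order of the treatments (PKCi, mock, Combo, CSA, anti-TCR) was that of Mcl1 on 167055_f_at. Xiap rose 2.12-fold with PKCi against anti-TCR (log2 ratio 1.09), while the log2 ratio was -0.73 for anti-TCR against mock, and 0.58 for Combo and 0.32 for CSA against anti-TCR.

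A dimmer Xiap probe set, 137492_at on chip type C, read 118 with mock, 65.5 with anti-TCR, 115 with CSA, 165 with PKCi and 116 with Combo, below the minimum of 220. Here too anti-TCR was lowest and PKCi highest, with a log2 ratio of 1.33 that was not counted. The i-suffixed 93402_i_at on chip type A read 60.1, 70.4, 58.2, 51.1 and 44.6 in the order mock, anti-TCR, CSA, PKCi and Combo, close to the floor of 51.1 and highest with anti-TCR. The other 2, 93400_at and 93401_g_at, stayed below the floor, at most at 30.9 and 15.9.

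Cflar, the inhibitor of caspase-8 at death receptors, reached the minimum on all 4 of its probe sets. On chip type B, 115031_at read 431 with mock, 777 with anti-TCR, 578 with CSA, 389 with PKCi and 558 with Combo. Anti-TCR was highest and PKCi lowest, with mock near PKCi. The log2 ratio was 0.85 for anti-TCR against mock and -0.997 for PKCi against anti-TCR (1.996-fold), just under the limit; median scaling of the arrays moved the second to -1.04, past it.

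The second Cflar probe set of chip type B, 115415_at, read 561 with mock, 560 with anti-TCR, 491 with CSA, 312 with PKCi and 372 with Combo. Mock and anti-TCR were level on it (log2 ratio 0.00), and PKCi and Combo gave -0.85 and -0.59 against anti-TCR. On chip type C, 133966_at read 398, 562, 431, 361 and 435 in the order mock, anti-TCR, CSA, PKCi and Combo, with log2 ratios of 0.50 for anti-TCR against mock and -0.64 for PKCi against anti-TCR. PKCi was thus the lowest treatment on these 3 probe sets, and 0 of the 3 passed 2-fold.

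The fourth, 103217_at on chip type A, differed. It read 138 with mock, 169 with anti-TCR, 193 with CSA, 151 with PKCi and 235 with Combo, and it reached the minimum of 204.4 through the Combo value only. Its log2 ratio of Combo to anti-TCR was 0.48, against -0.48, -0.59 and -0.37 on the other 3 probe sets of Cflar. Which transcript forms the 4 probe sets read was not analysed here.

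Anti-TCR against mock asks how receptor engagement alters these genes. Of 8 measured member probe sets of 5 genes, 0 rose and 0 fell, where 12.9% of all 7452 measured probe sets rose and 13.8% fell. The ratios ran from -0.98 (Mcl1) to 0.85 (Cflar), 4 above and 4 below 0, and their median of 0.05 lay beside a median of -0.06 for all measured probe sets. Among those above 0, Bcl2l1 was measured only through the anti-TCR value, so the minimum fixed its side. The widest ratios, those of Mcl1 and Cflar, were 1.30 and 1.13 technical SDs from 0.

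In the second comparison, CSA against anti-TCR, which bears on calcineurin, 0 of 8 member probe sets rose and 0 fell, against backgrounds of 5.12% and 5.7%. Bcl2l1 had the lowest ratio, -0.61 (1.52-fold), with 11.8% of all measured probe sets as low or lower, and Mcl1 on 167055_f_at the highest, 0.40. Bcl2l1 was measured here only through the anti-TCR value, so the minimum fixed the side on which it lies. The median over the members was -0.17 and that of all measured probe sets 0.02.

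With PKCi against anti-TCR, Mcl1 (167055_f_at) and Xiap (116320_at) rose, 2 of 8 measured, and 0 fell, where 14.4% of all 7469 measured probe sets rose and 10.5% fell. With so few members, 2 of 8 is not set apart from that background. The Mcl1 ratio of 1.42 was 1.99 technical SDs from 0, with 7.56% of measured probe sets as high or higher, and the Xiap ratio of 1.09 was 1.52 technical SDs from 0, with 12.5% as high or higher. The other Mcl1 probe set had a log2 ratio of 0.86, while Bcl2 (-0.28), Bcl2l1 (-0.85) and 3 probe sets of Cflar (-0.997, -0.85 and -0.64) lay below 0. Bcl2 and Bcl2l1 were measured here only through the anti-TCR value, the higher one, so the minimum fixed the side on which they lie. The median over the members, these included, was -0.46 beside 0.02 for all, and counting only probe sets that reached 8 times the floor turned it to 0.11, so nothing is read from it. Without suffixed probe sets the count that rose was 1, Xiap alone.

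With Combo against anti-TCR, 0 of 9 measured member probe sets rose and 0 fell, against backgrounds of 8.08% and 5.85%. Mcl1 had the highest ratio, 0.86 (1.81-fold) on 167055_f_at, and Xiap a log2 ratio of 0.58; Cflar on 115415_at had the lowest, -0.59, and Bcl2l1 gave -0.54. Bcl2 and Bcl2l1 were measured only through anti-TCR and Cflar on 103217_at only through Combo, so the minimum fixed the sign of 3 of the 9 ratios. The median over the members was -0.37 beside 0.02 for all measured probe sets, and 0.05 when only probe sets at 8 times the floor were counted, so nothing is read from it either. The comparisons of CSA, PKCi and Combo share the anti-TCR arrays, so a high or low anti-TCR value enters all 3 of them. The same value enters anti-TCR against mock on the other side of the ratio. A fall there and a rise with an inhibitor against anti-TCR are thus not independent results, for the members and for the other genes below.

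**Figure D2:**
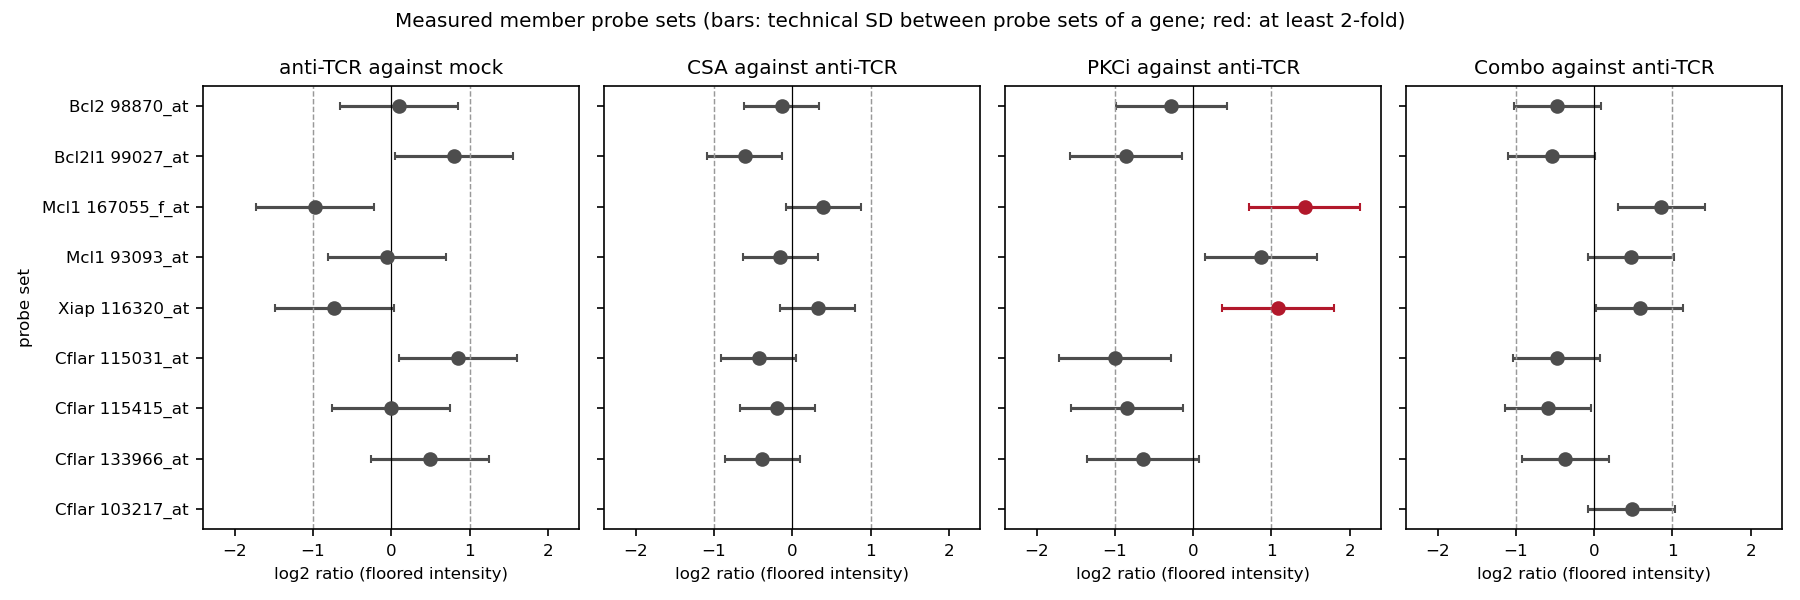
Log2 ratio of floored intensities (x axis) for the 9 member probe sets that reached 4 times the floor, in 4 comparisons, with bars of 1 technical SD (0.48 to 0.755) and dashed lines at 2-fold. The 2 red points, Mcl1 at 1.42 and Xiap at 1.09 with PKCi against anti-TCR, are the only ones past the dashed lines; points are missing where a probe set was not measured.

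**Figure D3:**
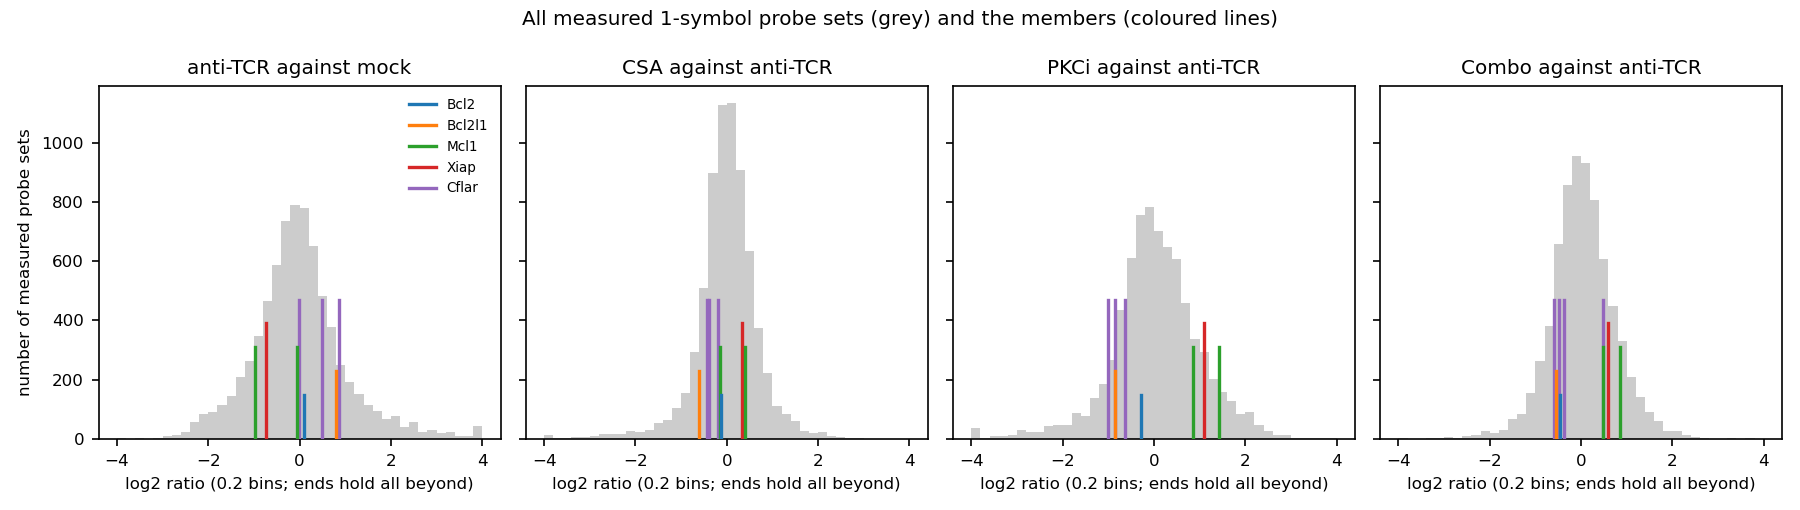
Number of measured probe sets (y axis) by log2 ratio in bins of 0.2 (x axis; the end bins hold all values beyond them) for all probe sets with 1 symbol (grey), with the members as coloured lines whose height only separates the genes. The members run from -0.98 to 0.85 for anti-TCR against mock and from -0.997 to 1.42 for PKCi against anti-TCR. At the value of 1.42, that of Mcl1, 7.56% of measured probe sets lay as high or higher.

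Set against mock in place of anti-TCR, the inhibitor arms showed no member past the limit. Of the measured member probe sets 0 of 7 rose or fell with CSA, where 18.0% of all measured probe sets did in either direction, 0 of 7 with PKCi (11.8%) and 0 of 8 with Combo (15.7%). With PKCi the ratios to mock ran from -0.85 (Cflar on 115415_at, with 5.89% of measured probe sets as low or lower) to 0.81 (Mcl1 on 93093_at, with 11.3% as high or higher). On 8 of the 9 bright probe sets, each step between neighbouring treatments in the order of intensity was below 0.48 on the log2 scale, the smallest technical SD, so neighbours in that order do not differ beyond the spread. The exception was Bcl2l1, whose step from anti-TCR to Combo was 0.54, still under the technical SD of 0.553 for that comparison.

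The genes whose profile over the 5 treatments was most like that of a member were found among bright probe sets of the same chip type that spanned at least 2-fold, by the mean absolute difference of log2 values centred on their own mean. For Mcl1 (167055_f_at) these were Khnyn (0.07), Map3k4 (0.08) and Zfand3 (0.10), out of 993 candidates. The Khnyn intensities were 949 with mock, 478 with anti-TCR, 666 with CSA, 1215 with PKCi and 783 with Combo, and the other 2 genes were read on f-suffixed probe sets, as Mcl1 was. For Xiap (116320_at) they were Ankrd16 (0.02), Zfp267 (0.03) and Yaf2 (0.05), out of 1301 candidates, with Ankrd16 at 339, 212, 265, 448 and 328 in the order mock, anti-TCR, CSA, PKCi and Combo. For the dim Bcl2l11 probe set 100988_at they were Tab2 (0.06), Smap1 (0.06) and Ccng1 (0.07), out of 1558. Each of these profiles rests on 5 arrays that the genes share.

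Around the members, 7 lists of other cell death genes were read the same way: 60 of their 72 genes had a probe set with 1 symbol. With anti-TCR against mock, 5 of 39 measured probe sets (12.8%) rose and 6 (15.4%) fell. With CSA against anti-TCR 2 of 34 (5.88%) rose and 5 (14.7%) fell, with PKCi 7 of 36 (19.4%) rose and 2 (5.56%) fell, and with Combo 5 of 34 (14.7%) rose and 0 fell. The backgrounds are those given above for the members, and the median log2 ratios were -0.22, 0.06, 0.28 and 0.33 in the same order, against -0.06, 0.02, 0.02 and 0.02 for all measured probe sets. With PKCi, the rises of Bbc3, Birc2, Apaf1, Dffa and Casp8ap2 and the fall of Casp4 were measured only through the higher value. The same held for Apaf1 and Dffa with Combo, and for Bbc3, Bag3 and Casp4 with CSA. With anti-TCR against mock it held for Birc6, Apaf1, Foxo3, Mdm2 and Tradd on 136534_at. The minimum fixed the side of these ratios, so nothing is read from the list counts or medians. Against mock, 4 of 42 rose and 8 fell with CSA, 3 of 41 rose and 1 fell with PKCi, and 5 of 41 rose and 1 fell with Combo, beside the shares in either direction given above (18.0%, 11.8% and 15.7%).

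Among other Bcl2 family genes, the survival members Bcl2l2 and Bcl2l12 gave 0 calls in each comparison on 2 or 3 measured probe sets. With CSA and with Combo against anti-TCR only Bcl2l12 was measured, so Bcl2l2 could not be judged there. The Bcl2a1 genes were read only by probe sets with several symbols. Of the other effectors and BH3-only genes, Bbc3 (Puma, a BH3-only gene known as a target of p53) was called. On the r-suffixed 166222_r_at it read 307 with mock, 207 with anti-TCR, 558 with CSA, 438 with PKCi and 171 with Combo. Bbc3 rose 2.69-fold with CSA and 2.11-fold with PKCi against anti-TCR, both measured only through the higher value. In each of these comparisons only 3 probe sets of this list were measured, from the 2 genes Bbc3 and Bcl2l13. Bcl2l13 did not pass the limit in either, and the other genes of the list could not be judged. The BH3-only genes Bik and Pmaip1 stayed at or below the floor.

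The inhibitor of apoptosis list held 1 fall with anti-TCR among 5 measured and 1 rise with PKCi among 3. Birc2 (cIAP1), a ubiquitin ligase of TNF receptor complexes, read 301 with mock, 164 with anti-TCR, 206 with CSA, 354 with PKCi and 304 with Combo, and rose 2.16-fold with PKCi. Birc6, a giant ubiquitin-conjugating inhibitor, fell 2.84-fold with anti-TCR on 102754_at, from 244 to 85.8. Its other bright probe set, 137595_at on chip type C, read 208.6 with anti-TCR, 253.6 with CSA and 238.0 with PKCi. With mock as with anti-TCR that probe set lay under the minimum, so it was not measured there and showed no fall of this size. For Birc2 as for Xiap, anti-TCR was the lowest of the 5 treatments and PKCi the highest.

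Of the caspases, Casp4, an inflammatory caspase, had the widest changes. It read 222 with mock, 559 with anti-TCR, 80.2 with CSA, 144 with PKCi and 315 with Combo. Casp4 rose 2.52-fold with anti-TCR and fell 6.97-fold with CSA and 3.89-fold with PKCi against anti-TCR. The other measured caspases, Casp1 and Casp2, passed the limit in 0 of these 4 comparisons. In CSA against mock, Casp1 fell 2.28-fold, from 474 to 208, and Casp4 fell 2.77-fold. These were 2 of 3 measured, where 18.0% of all measured probe sets changed in either direction. Casp4 was measured there only through the mock value, so the minimum fixed its side.

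Apaf1, the scaffold of the apoptosome, read 315 with mock, 130 with anti-TCR, 183 with CSA, 362 with PKCi and 329 with Combo. It fell 2.42-fold with anti-TCR and rose 2.77-fold with PKCi and 2.52-fold with Combo against anti-TCR. Dffa (ICAD), the inhibitor of the caspase-activated DNase, rose 2.91-fold with PKCi and 2.39-fold with Combo. The other measured genes of this list, Aifm1, Bcap31 and Dffb, gave 0 calls.

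Among death receptor genes, Fasl, the ligand of Fas, read 504 with mock, 1534 with anti-TCR, 657 with CSA, 679 with PKCi and 1051 with Combo. Fasl rose 3.04-fold with anti-TCR and fell 2.33-fold with CSA and 2.26-fold with PKCi. The adaptor Traf1 fell 2.92-fold with anti-TCR and rose 2.24-fold with Combo, and Tnfsf10 (TRAIL), a death ligand, fell 2.38-fold and rose 2.36-fold in the same comparisons. Casp8ap2, a caspase-8 associated protein, rose 2.58-fold with PKCi. Traf2, an adaptor that recruits cIAP proteins, fell 2.34-fold with CSA on an i-suffixed probe set and had a log2 ratio of -0.65 on its other. The other Traf2 probe set was measured only through the anti-TCR value (158 with CSA, 248 with anti-TCR), so the minimum fixed its side.

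Tradd, the adaptor of TNF receptor 1, rose with anti-TCR on both of its probe sets, 4.64-fold on 136534_at and 2.84-fold on the r-suffixed 160689_r_at. The same probe sets disagreed with PKCi against anti-TCR, at 1.33 and -0.42 on the log2 scale, and with CSA, at 0.45 and -1.02. Fas itself stayed at or below the floor.

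Of the upstream regulators, Pdcd4, a translation inhibitor, read 1432 with mock, 327 with anti-TCR, 388 with CSA, 916 with PKCi and 559 with Combo. It fell 4.38-fold with anti-TCR and rose 2.80-fold with PKCi. Foxo3, a transcription factor known to drive Bcl2l11, fell 2.59-fold with anti-TCR, from 228 to 88.0. Pim1, a survival kinase, fell 2.04-fold with CSA and rose 2.28-fold with Combo, where it read 2264. Its other probe set, 99384_at, gave 0.68 with Combo on the log2 scale. That probe set was measured only through the Combo value (255, against 159 with anti-TCR), so the minimum fixed its side. Mdm2, the ubiquitin ligase of p53, rose 4.14-fold with anti-TCR on 134102_at but had a log2 ratio of 0.09 on 98110_at, and Bag3, a cochaperone, rose at least 4.26-fold with CSA on an f-suffixed probe set, from below the floor to 218.

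**Figure D4:**
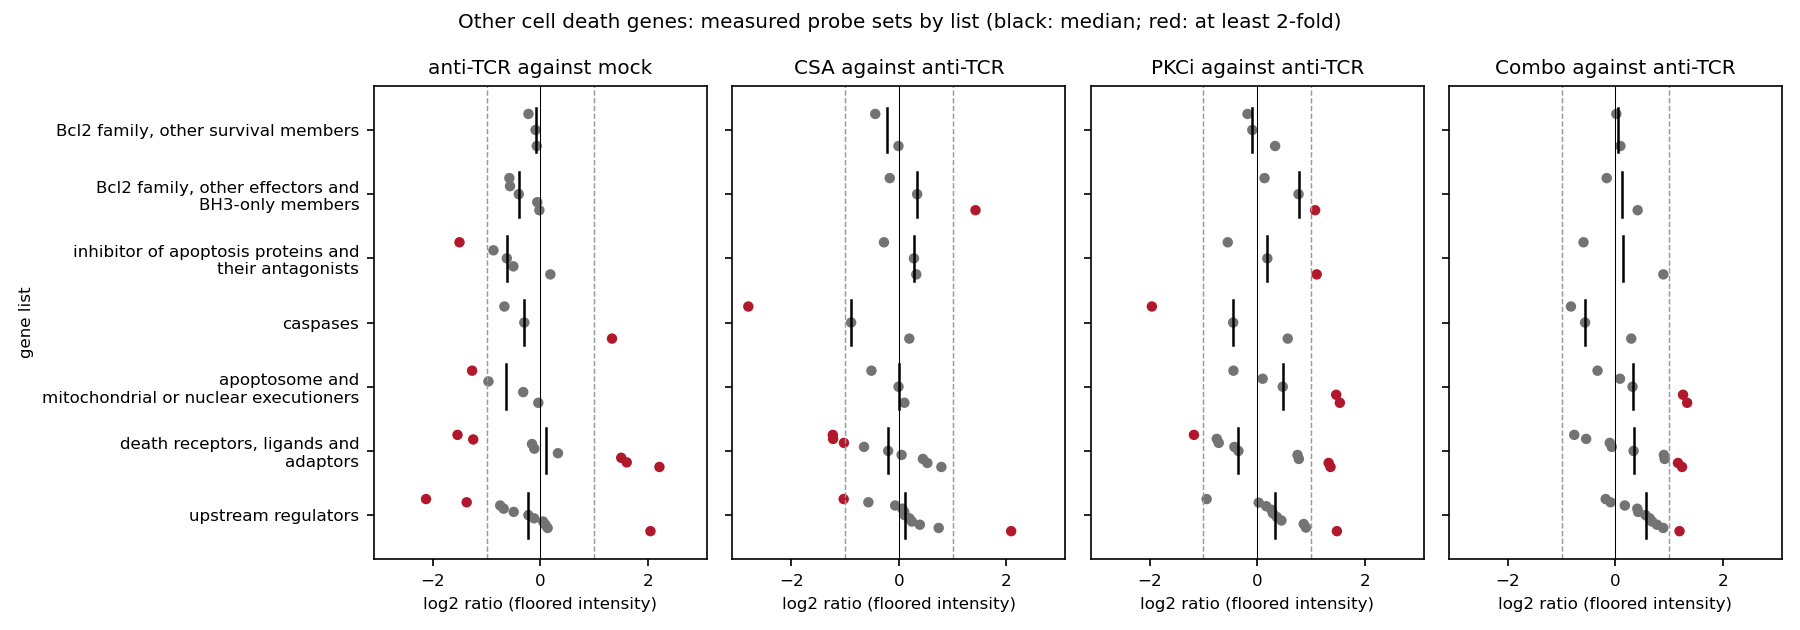
Log2 ratio of floored intensities (x axis) for each measured probe set of 7 lists of other cell death genes (rows) in 4 comparisons, with the list median as a black line, dashed lines at 2-fold and red for probe sets past it. The lowest point is Casp4 with CSA, at -2.80, and with Combo against anti-TCR 5 points lie past the right dashed line and 0 past the left one.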

How the data were processed

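The deposited values are array intensity per probe set, linear and never below 0. Within a chip type, the trimmed means (2% off each end) of the arrays differ by at most 0.232% (A), 0.242% (B) or 0.153% (C), so the authors had scaled them; the method and software were not given in the sources used here. Detection calls were not used. Groups came from the array titles. Gene names came from the platform annotation: 29131 probe sets carry 1 symbol, 724 several and 6846 none, and matching gene identifiers to a current table (29044 matched) changed 0 symbols.

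Intensity was floored and log2 ratios and counts were computed per probe set in Python 3.11.15 with numpy 2.4.6 and pandas 2.3.3; the steps were tested on simulated data. Technical SDs used 848, 792, 867 and 839 pairs of probe sets, the brightest of a gene on each chip type, for the 4 comparisons in the order of the report. The number of arrays limits the precision. Genes named outside the members are those past 2-fold in the 7 lists (up to 2 per direction in each list) and the 3 most like each member whose brightest probe set spanned 2-fold; the further probe set of a named gene, the Bcl2a1 genes, Bcl2l2, Bcl2l12, Bik, Pmaip1, Fas, Casp1, Casp2, Aifm1, Bcap31 and Dffb, were added after their values were seen. The members and lists were chosen with earlier results of these data known. Alternatives were quantile normalization, median scaling, floors of 0.5 and 2 times the median, a minimum of 8 times the floor or none, leaving out suffixed probe sets, the brightest probe set per gene, and a 3-fold limit.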

Additional observations from a re-analysis of the deposited data

How the results depend on the processing

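No paired analysis was possible because each treatment has a single array on each chip type; no replicate could be left out for the same reason. For PKCi against anti-TCR, 2 member probe sets changed as reported, 1 without suffixed probe sets (Xiap), 0 with a 3-fold limit and 3 with median scaling (Cflar, 115031_at, fell at -1.04) or with no minimum (Xiap, 137492_at, 1.33). For anti-TCR against mock 0 changed as reported, 1 with quantile normalization (Mcl1, 167055_f_at, -1.07) and 1 with no minimum (Bcl2l11, -1.20); for CSA against anti-TCR it was 1 with no minimum (Bcl2, 98869_g_at, -1.32). Combo against anti-TCR kept a count of 0 under all of these alternatives. The median over the members moved by less than 1 technical SD under each alternative, but it turned from -0.46 to 0.11 with PKCi and from -0.37 to 0.05 with Combo, and from 0.05 to -0.004 for anti-TCR against mock, when only probe sets at 8 times the floor were counted, which leaves 6, 6 and 5 probe sets. Of 33 single log2 ratios under 4 changes of scaling or floor, 0 moved by a technical SD, and 2 changed sign, both at most 0.05 in size. Signal near background limits the members: 17 of 26 probe sets never reached 4 times the floor, 5 of Bcl2, 4 of Bcl2l11, 4 of Xiap, 2 of Bid, 1 of Bak1 and 1 of Bcl2l1, and the bright probe set of Bcl2l1 reached it with anti-TCR only.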
